A study of Mus musculus with 70 samples.

Results

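Oxt, Avp, Oxtr and Avpr1a encode oxytocin, vasopressin, the oxytocin receptor and the vasopressin 1a receptor. They were taken by name from the gene-level expression table, where they are 4 of 34677 genes, and were followed over all 70 libraries and 24 groups. The 57 adult libraries came from 18 brain regions of untreated male C57BL/6NTac mice at postnatal day 56, each region punched from frozen sections and most libraries pooled from 3 or 4 mice (1 nucleus accumbens library came from 1 mouse). The 9 embryonic libraries came from E14.5 C57BL/6NTac embryos and covered forebrain (F, 1 library), midbrain (M, 2), hindbrain (H, 3) and a dissection holding the terminal and peduncular hypothalamus (THy-PHy, 3). The 4 libraries of mouse embryonic stem cells (mESC) came from 2 lines of C57BL/6 origin, B6-1 and B6-2, with 2 libraries each. The labels name no deletion, transgene or agent for any group. Replicates of a region were mostly separate pools, so p-values measure a spread between pools, which edgeR estimated for each gene over all 24 groups together. The study used far fewer animals than separate pools for every library would need, so libraries of different regions share mice; the labels do not say which, and the tests treat libraries as independent. The stages were prepared as separate batches, so stage and batch cannot be told apart. Adult libraries were spread over several batches, which the labels do not tie to single libraries, so no batch term was fitted.

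The adult hypothalamus was represented by the arcuate nucleus (ARH, 3 libraries), the ventromedial nucleus (VMH, 2), the dorsomedial nucleus (DMH, 4), the lateral hypothalamic area (LHA, 3) and the paraventricular nucleus (PVH, 2). Outside it, the cortex was represented by the anterior cingulate (ACA), frontal pole (FRP) and entorhinal (ENT) areas and the reward regions by the nucleus accumbens (ACB) and the ventral tegmental area (VTA). The brainstem was covered by the parabrachial nucleus (PB), the nucleus of the solitary tract (NTS) and the dorsal-vagal complex (DVC). The cerebellum was covered by lobules CENT2, CUL4-5 and UVU, the flocculus (FL) and the cerebellar nuclei (CBN). Libraries held 9074581 to 22229582 estimated counts, with a median of 17016935. Of 21 genes that mark the sampled areas, 19 had their highest group mean in the named area; Fezf1, highest in THy-PHy, was an exception. Levels are given in TPM, a unit scaled by transcript length and library total, so that levels of different genes can be compared.

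Oxytocin and vasopressin are peptide hormones made mainly by neurosecretory neurons of the hypothalamus, in particular those of the paraventricular and supraoptic nuclei. Each is cut from a larger precursor that also holds a carrier protein, a neurophysin, and is carried along axons to the posterior pituitary or released within the brain. Oxytocin acts through the G protein-coupled receptor encoded by Oxtr, and vasopressin acts in the brain largely through the receptor encoded by Avpr1a, both of which signal through Gq proteins, phospholipase C and calcium release. The system is known for its part in parturition and lactation, water balance, social behaviour and food intake.

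Oxt and Avp are neighbours on the chromosome, and their similarity bears on how short reads can be assigned to them. In GRCm38, Oxt (ENSMUSG00000027301.7) lies on the forward strand of chromosome 2 from 130576173 to 130577054, and Avp (ENSMUSG00000037727.6) on the reverse strand from 130580620 to 130582554. The genes face each other tail to tail with 3565 bases between their ends. Each has a single annotated transcript of 3 exons, of 537 bases for Oxt and 577 bases for Avp. The 27 bases that encode the mature hormones lie in exon 1 of both genes, at chr2:130576267-130576293 (forward strand) for Oxt and chr2:130582446-130582472 (reverse strand) for Avp. They are shown because these bases set the hormones apart, with the bases that differ in capitals.
Oxt: tgctacAtccagaactgcccCCTGggc
Avp: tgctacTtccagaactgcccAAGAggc
Counted from 1 at the first base shown, with the Oxt base first, the differences are A7T, C21A, C22A, T23G and G24A, in codons 3, 7 and 8.

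The 2 transcripts are identical over a longer stretch that encodes part of the neurophysin. The longest shared run, of 127 bases, crosses from exon 1 into exon 2 and is shown because no read inside it can tell the genes apart.
Shared run: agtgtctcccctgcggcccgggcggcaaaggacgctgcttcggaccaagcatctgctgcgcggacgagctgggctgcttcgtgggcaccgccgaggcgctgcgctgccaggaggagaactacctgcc
It occupies transcript bases 156 to 282 of Oxt and 144 to 270 of Avp. For the 33-base reads used here, 95 of the 505 possible read positions in Oxt (18.8%) and 95 of the 545 in Avp (17.4%) match the other transcript exactly. The remaining positions separate the genes, and the study's software divided the shared reads by estimation, so a small amount of signal of either peptide next to a large amount of the other is uncertain.

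Of 5 motifs searched, CATAAA was found in the promoters of both genes. The 250 bases before the RefSeq start of each gene, on GRCm38.p6, are shown because both genes were high in the same regions; capitals mark matches to the motifs searched on both strands (TGACCT, a nuclear receptor motif; CACGTG, the E-box; TGACGTCA, the cyclic AMP response element; TATAAA and CATAAA). The Oxt window is chr2:130575919-130576168 (forward strand) and the Avp window is chr2:130582589-130582838 (reverse strand). The RefSeq start lies 4 bases upstream of the Ensembl start given above for Oxt and 34 bases upstream for Avp, and distances are counted from the RefSeq start.
Oxt promoter: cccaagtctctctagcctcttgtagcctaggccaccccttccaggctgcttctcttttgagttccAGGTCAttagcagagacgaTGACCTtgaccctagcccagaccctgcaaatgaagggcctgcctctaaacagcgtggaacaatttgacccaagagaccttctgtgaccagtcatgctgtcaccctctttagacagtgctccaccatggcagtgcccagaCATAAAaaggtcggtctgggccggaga
Avp promoter: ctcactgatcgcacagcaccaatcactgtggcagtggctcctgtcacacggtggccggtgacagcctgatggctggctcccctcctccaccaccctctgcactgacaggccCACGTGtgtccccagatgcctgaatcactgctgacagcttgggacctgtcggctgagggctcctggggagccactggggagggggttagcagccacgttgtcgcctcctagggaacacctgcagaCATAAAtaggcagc
CATAAA occurred once in each window, 27 to 22 bases before the start of Oxt and 14 to 9 bases before the start of Avp, and was present in 10.8% of 32851 promoters. TGACCT occurred 2 times in the Oxt window, on opposite strands, and in 4607 of the 32851 promoters, while it was not found in the Avp window. CACGTG occurred once in the Avp window and in 6.02% of all promoters. None of the 4 genes had TGACGTCA in this window, against 1.55% of all promoters.

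Oxt was high in 4 of the 5 adult hypothalamic regions, lower and uneven in the DMH, and close to 0 outside the hypothalamus. In the PVH the libraries had 454 and 2075 TPM. In the ARH they had 341, 615 and 113 TPM, and in the VMH 599 and 52.5 TPM. The PVH thus held the highest library, but its lower library lay below 1 ARH and 1 VMH library. The LHA libraries lay close together at 40.6, 37.1 and 41.9 TPM, and the DMH libraries had 29.6, 1.11, 10.6 and 7.47 TPM. Over the 43 adult libraries outside the hypothalamus Oxt ranged from 0 to 2.67 TPM with a median of 0, 23 of them were at 0, and 3 had more than 3 counts; the highest was NTS replicate 1, above DMH replicate 2. In bulk tissue, fewer cells of a type and less RNA per cell cannot be told apart.

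Avp was high in the ARH, PVH and LHA and in 1 of the 2 VMH libraries, and low in most DMH libraries. In the ARH the libraries had 464, 1904 and 228 TPM, and in the PVH 221 and 1069 TPM. The VMH libraries had 409 and 7.61 TPM, the LHA libraries 84.2, 62.4 and 73.3 TPM, and the DMH libraries 18.8, 0.946, 0 and 1.81 TPM. The ARH mean, 865 TPM ± 907 (SD, n = 3), was above the PVH mean, 645 TPM ± 599 (SD, n = 2), by less than the spread of either. Of the 43 adult libraries outside the hypothalamus, 28 were at 0, the highest had 2.11 TPM (PB replicate 1) and 4 had more than 3 counts. Of the 4 DMH libraries, 3 lay below that highest library. For each peptide, the only neighbours in the order of the 24 group means that differed by more than the larger of their SDs were LHA and DMH, 1 of 23 pairs.

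**Figure D1:**
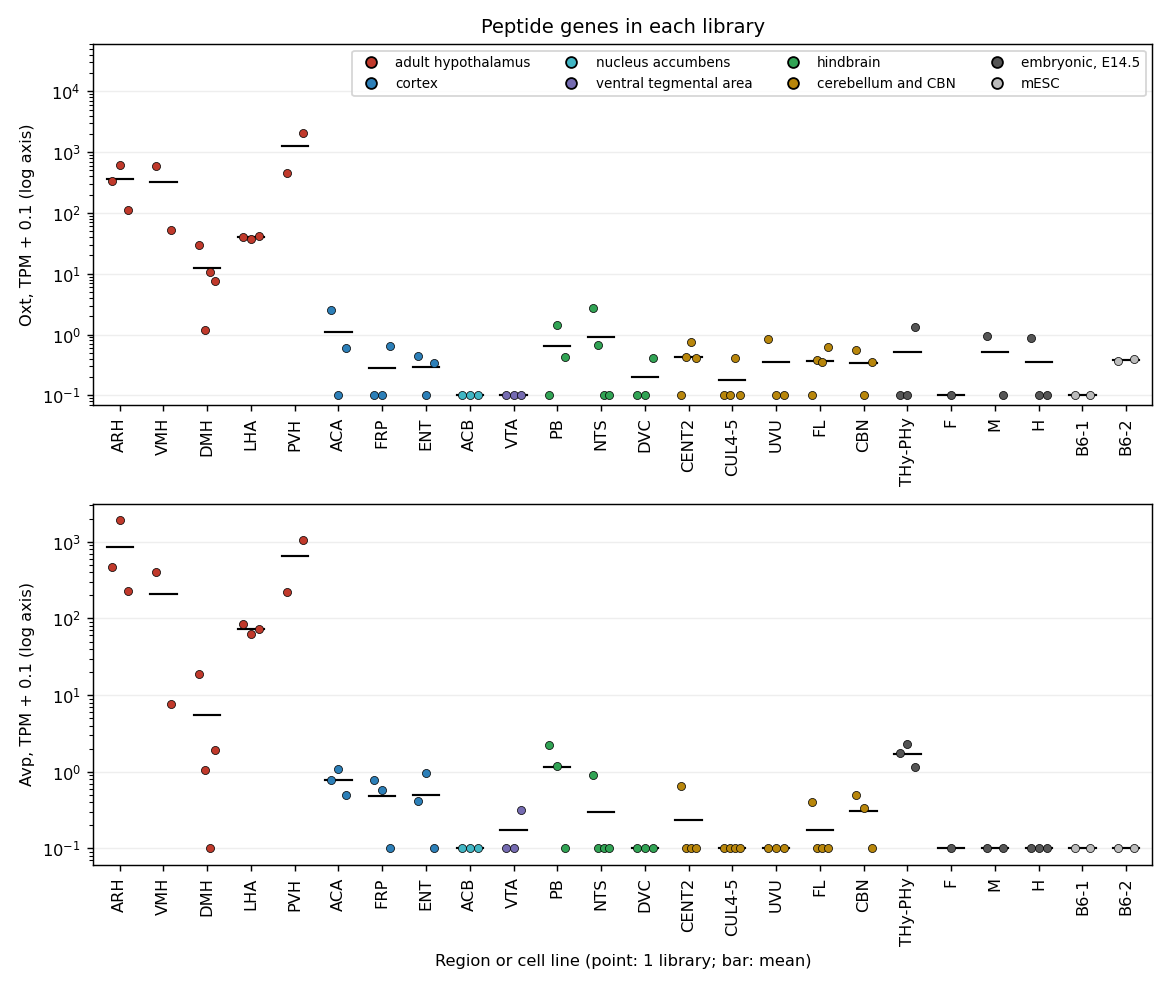
Oxt and Avp in each of the 70 libraries, with regions on the horizontal axis and TPM + 0.1 on a logarithmic vertical axis; each point is a library and each bar a group mean. Points over 30 TPM lie in the PVH, ARH, VMH and LHA only, and the libraries of the ARH, VMH and PVH are far apart within a region.

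The balance between the 2 peptides differed in direction between regions. The ratio of Avp to Oxt TPM was 1.36, 3.1 and 2.02 in the ARH and 2.07, 1.68 and 1.75 in the LHA. It was 0.488 and 0.515 in the PVH, 0.684 and 0.145 in the VMH, and 0.633, 0.853, 0 and 0.242 in the DMH. Avp was thus above Oxt in every ARH and LHA library and below it in every PVH, VMH and DMH library. In the PVH the ratio differed little between the libraries although both peptides differed more than 4-fold, at 4.58 times for Oxt and 4.83 times for Avp. In DMH replicate 2 the ratio rests on 2.92 counts of Avp and 3.08 of Oxt. The ratios were not tested.

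**Figure D2:**
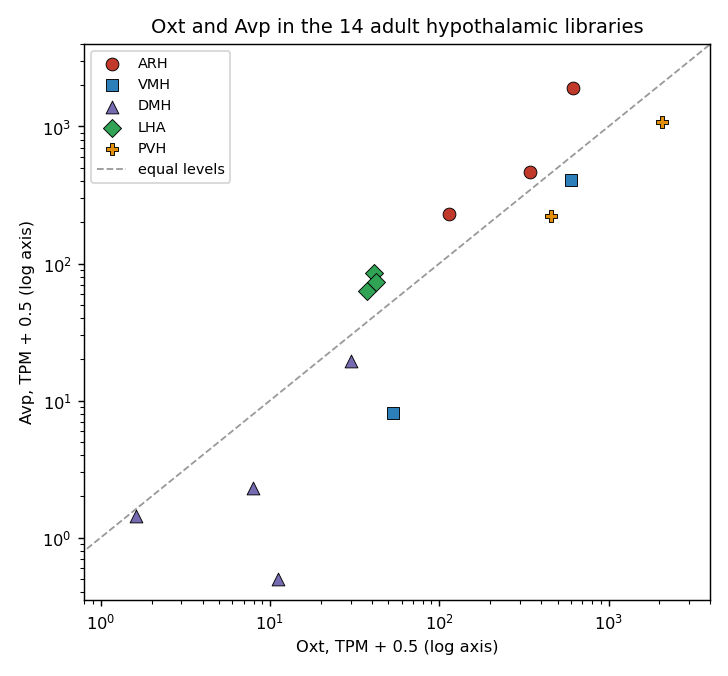
Oxt (horizontal axis) against Avp (vertical axis) in the 14 adult hypothalamic libraries, both in TPM + 0.5 on a logarithmic axis; each point is a library and the dashed line marks equal levels. ARH and LHA libraries lie on the Avp side of the line and PVH, VMH and DMH libraries on the Oxt side.

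Differences between pools of the same region were large for the peptides in 4 of the 5 regions. The highest over the lowest library was 5.44 for Oxt and 8.35 for Avp in the ARH, where 1.04% and 0.58% of 15165 genes with a mean of at least 1 TPM had a larger ratio and the median gene had 1.23. In the VMH it was 11.4 for Oxt and 53.8 for Avp, exceeded by 0.237% and 0.0723% of 15217 genes. In the DMH it was 26.7 for Oxt and could not be formed for Avp, which was absent from DMH replicate 3. The LHA did not show this: the ratios there were 1.13 and 1.35, and 69.7% and 27.4% of genes had larger ones. For the receptors the ratio lay between 1.03 and 2.07 in the 5 regions, with Oxtr between 1.03 in the PVH and 1.39 in the VMH, where 89.2% and 18.6% of genes had larger ones. Avpr1a was less even: 4.38% of genes exceeded its ratio of 2.01 in the PVH, 6.78% its 1.87 in the VMH and 10.6% its 2.07 in the DMH.

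The 2 peptides tended to deviate from their region mean together. Over the 14 libraries, the deviations of log2(TPM + 0.5) from the region mean had the same sign for Oxt and Avp in 12. In the PVH and VMH, with 2 libraries each, the deviations mirror each other, so the signs of the 2 libraries are not separate observations. Pearson's r was 0.793 (exact permutation within regions, 3456 arrangements, two-sided p = 0.0466, Benjamini-Hochberg adjusted p = 0.186 over 4 relations) and Spearman's rho 0.758 (exact permutation p = 0.0477, adjusted p = 0.191). The relation therefore did not pass after adjustment. Without the 2 libraries farthest from the median, DMH replicates 1 and 2, r was 0.888 (exact permutation p = 0.0903). Each of the 14 libraries was also left out in turn, which gave r from 0.691 to 0.934, and only 1 omission changed the call. It was that of DMH replicate 3, the only adult hypothalamic library with no Avp (r = 0.934, exact permutation adjusted p = 0.037). As the highest of the 14 values, it does not change the result over all libraries.

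No relation between a peptide and its receptor, or between the receptors, passed the test. Pearson's r was 0.112 between Oxt and Oxtr (exact permutation adjusted p = 0.854; rho = 0.0418, adjusted p = 0.93) and -0.086 between Avp and Avpr1a (exact permutation adjusted p = 0.854; rho = -0.116, adjusted p = 0.93). Between Oxtr and Avpr1a r was -0.416 (exact permutation adjusted p = 0.566; rho = -0.437). Without the 2 farthest libraries r was 0.171, -0.126 and -0.556. With 14 libraries in 5 regions these values leave a wide range of relations possible.

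Some genes of neurosecretory neurons peaked in the same libraries as Oxt, and others did not. Otp and Sim1 encode transcription factors required for these neurons to form. In each of the 5 regions the library with the most Oxt was also the library with the most Otp and the most Sim1. The same was true of Avp in 4 regions, of Crh (corticotropin-releasing hormone) in 4 and of Trh (thyrotropin-releasing hormone) in 3. Of the other listed transcription factors, Pou3f2 and Arnt2 peaked with Oxt in 3 regions each and Creb3l1 in 2. Of 15414 genes compared with Oxt over the 5 regions, 84 (0.545%) peaked in the same library in all 5. No such share was counted for matches in fewer regions, so the counts of 4, 3 and 2 have no background beside them. In the LHA, Oxt differed only 1.13-fold between libraries, and 69.7% of genes differed more, so a match there rests on a small difference. These counts were made after the values had been seen. Otp was 11.9 and 34.7 TPM in the PVH libraries, 40.3, 92.4 and 50.8 TPM in the ARH, and 31.1 and 23.1 TPM in the VMH. Sim1 was 2.13 and 5.79 TPM in the PVH. Summed over Sim1, Otp, Crh and Trh, the PVH libraries had 112 and 231 TPM, the VMH libraries 324 and 259 (the second with 52.5 TPM of Oxt), the ARH 74.3 to 139, the DMH 37.9 to 93.4 and the LHA 35.5 to 52.7, and none of the 4 genes was at 0 in any of them. The part of neurosecretory cell content in the peptide levels was not tested.

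Markers of neighbouring structures differed between these regions too. The suprachiasmatic nucleus is another site of Avp. The sum of 7 of its markers was 129 and 120 TPM in the PVH and 30.8 to 104 TPM in the other adult hypothalamic libraries. Rgs16 alone made up 106 and 97.9 TPM of it in the PVH. The sum of the other 6 was 23.7 and 22.5 TPM in the PVH and 29.3, 31.1 and 29.6 TPM in the ARH. It was 17.9 and 28.7 TPM in VMH replicates 1 and 2, 19.2 to 21.7 TPM in the DMH and 18.5 to 22.4 TPM in the LHA. Vip, a defining peptide of the suprachiasmatic nucleus, was at most 2.91 TPM in any adult hypothalamic library and 0.866 and 0.249 TPM in the PVH. The sum of 6 anterior pituitary genes was 76.1, 117 and 110 TPM in the ARH, led by Cga, the common subunit of the glycoprotein hormones, at 67.3, 93.7 and 75.8 TPM. It was 1.89 to 18.7 TPM in the other regions, with Cga at 0 in the VMH and PVH. The sum of 4 genes of tanycytes and the median eminence was 129 to 168 TPM in the ARH and 37.0 to 69.9 TPM elsewhere in the adult hypothalamus. Markers of the named nuclei were shared too. Hcrt and Pmch, the peptides of the LHA, summed to 4786 to 7070 TPM in the LHA, 4113 and 4534 TPM in the VMH, 478 to 2268 TPM in the DMH, 674 to 877 TPM in the ARH and 16.6 and 96.5 TPM in the PVH. Nr5a1 and Fezf1, transcription factors of the VMH, summed to 108 and 50 TPM in the VMH and 50.9 to 57.7 TPM in the ARH. The ARH genes Agrp, Pomc and Ghrh summed to 621 to 1000 TPM in the ARH and 32.3 and 63.1 TPM in the VMH. The part of these structures in the Oxt and Avp levels was not tested.

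The PVH was compared with the other 4 adult hypothalamic regions in edgeR's quasi-likelihood test over all 70 libraries, to ask whether the peptides set this nucleus apart. A call required a Benjamini-Hochberg adjusted p below 0.05 over 19980 genes and an absolute log2 fold change above 1; 2.03% of genes were called, 1.42% higher and 0.616% lower. Of the 4 genes, Oxt and Avp were called higher and no receptor was called. Mean Oxt was 1264 TPM in the PVH and 184 TPM over the other regions, a log2 fold change of 3.87 (SE 0.43, edgeR adjusted p = 3.34e-09). Mean Avp was 645 and 288 TPM, a log2 fold change of 2.81 (SE 0.56, edgeR adjusted p = 0.000717). The libraries of the 2 sides overlapped for both genes. The fitted change is an average over regions on the log scale, in which the low DMH weighs as much as the ARH.

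The peptide calls depended on which region the PVH was set against, a set of comparisons added after the data had been seen. Against the DMH, Oxt had a log2 fold change of 6.72 (edgeR adjusted p = 2.01e-09) and Avp of 6.94 (edgeR adjusted p = 3.13e-06), and against the LHA 4.91 and 3.06 (edgeR adjusted p = 2.07e-06 and 0.0114). Against the VMH neither passed, at 1.98 and 1.65 (edgeR adjusted p = 0.0813 and 0.326). Against the ARH, Oxt was higher by 1.86 (edgeR adjusted p = 0.0252) and Avp had the opposite sign, -0.40 (edgeR adjusted p = 0.808). Without PVH replicate 2 the change of Avp against all 4 regions was 1.32 and did not pass (edgeR adjusted p = 0.546). DESeq2 gave nearly the same sizes with larger SEs, 3.88 (SE 1.38) for Oxt and 2.83 (SE 1.73) for Avp, and DESeq2 adjusted p of 0.0579 and 0.41. The edgeR fit estimates a single spread per gene over all groups, most of them near 0 for these peptides. Its p-values therefore need not reflect the spread between hypothalamic pools.

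Both receptors were lower in the PVH than in each other adult hypothalamic library, without passing the test. Avpr1a was 0.897 and 1.8 TPM in the PVH against a mean of 3.62 TPM over the other 4 regions, a log2 fold change of -1.39 (SE 0.52, edgeR adjusted p = 0.121). Oxtr was 3.15 and 3.07 TPM against 4.71 TPM, a log2 fold change of -0.52 (SE 0.36, edgeR adjusted p = 0.536). For Avpr1a the call depended on the test: DESeq2 gave -1.38 with adjusted p = 0.0352, and limma on log2(TPM + 0.5) gave -1.16 with adjusted p = 0.00233.

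The adult hypothalamus as a whole was then compared with the other 13 adult regions. All 4 genes were called higher, where 8.84% of all genes were called and 6.11% were called higher. The mean over regions was 400 against 0.308 TPM for Oxt and 360 against 0.249 TPM for Avp, or 1298 and 1445 times. On the log2(TPM + 0.5) scale limma gave differences of 7.29 (SE 0.29) and 6.87 (SE 0.31), and on the log2(TPM + 0.1) scale 8.88 (SE 0.48) and 8.44 (SE 0.45), so the sizes depend on the constant added; edgeR called both (adjusted p = 1.25e-26 and 3.34e-17). edgeR's own fold depends on a prior count here, since 2 of the 13 regions had no Oxt count and 4 had no Avp count. Mean Avpr1a was 3.16 against 0.756 TPM, a log2 fold change of 2.77 (SE 0.19, edgeR adjusted p = 7.4e-18). Mean Oxtr was 4.39 against 2.82 TPM, 1.56 times, with a log2 fold change of 1.33 (SE 0.14, edgeR adjusted p = 7.09e-12). That fold averages regions on the log scale, where the cerebellar regions, at means of 0.26 to 0.584 TPM, weigh as much as the others. The ENT mean of Oxtr, 11.0 TPM, lay above every hypothalamic region. The FRP and ACB means, 6.06 and 5.28 TPM, lay above all of them but the ARH. Libraries overlapped for all 4 genes.

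Oxtr reached its highest levels outside the hypothalamus. The ENT libraries had 10.8, 9.59 and 12.7 TPM, a mean of 11.0 TPM ± 1.58 (SD, n = 3). The ARH followed with 7.31, 5.47 and 7.14 TPM, so that the 2 highest regions did not overlap. In the FRP replicate 1 stood apart, with 11.7 TPM against 2.64 and 3.86 TPM, and in the ACB the libraries had 2.4, 4.98 and 8.44 TPM. The VMH (4.24 TPM ± 0.968, n = 2), DMH (4.17 ± 0.377, n = 4), LHA (3.81 ± 0.309, n = 3), ACA (3.57 ± 0.463, n = 3), PVH (3.11 ± 0.0569, n = 2) and PB (3.1 ± 0.203, n = 3) formed a gentle slope in which no neighbours differed by more than the larger SD. Lower came the DVC (2.09 ± 0.391, n = 3), NTS (1.84 ± 0.172, n = 4) and VTA (1.35 ± 0.402, n = 3). The 5 cerebellar regions had means from 0.26 TPM in CUL4-5 to 0.584 TPM in CENT2. Over all 24 groups, 6 of 23 pairs of neighbours differed by more than the larger SD: ENT over ARH, PB over DVC, NTS over VTA, M over H, CUL4-5 over B6-1 and B6-1 over B6-2.

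Avpr1a had another distribution, led by the hypothalamus and low in the cortex. The ARH libraries had 4.15, 3.77 and 5.16 TPM, the LHA libraries 3.02, 3.17 and 4.67 TPM, and the VMH libraries 2.51 and 4.68 TPM. The DMH (2.9 TPM ± 0.917, n = 4) and DVC (2.67 ± 0.634, n = 3) followed, and none of these 5 differed from its neighbour by more than the larger SD. The VTA (1.95 ± 0.457, n = 3), NTS (1.94 ± 0.845, n = 4), PVH (1.35 ± 0.64, n = 2) and PB (1.29 ± 0.383, n = 3) were intermediate. The ACB had 0.521 ± 0.352 TPM (n = 3), and the 3 cortical and 5 cerebellar regions had means from 0.106 TPM in the ENT to 0.305 TPM in the CBN. The ENT, first of 24 groups for Oxtr, was thus the lowest brain region for Avpr1a, with 1, 2 and 5 counts in its libraries. Only DVC over VTA and THy-PHy over H, 2 of 23 pairs of neighbours, differed by more than the larger SD.

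**Figure D3:**
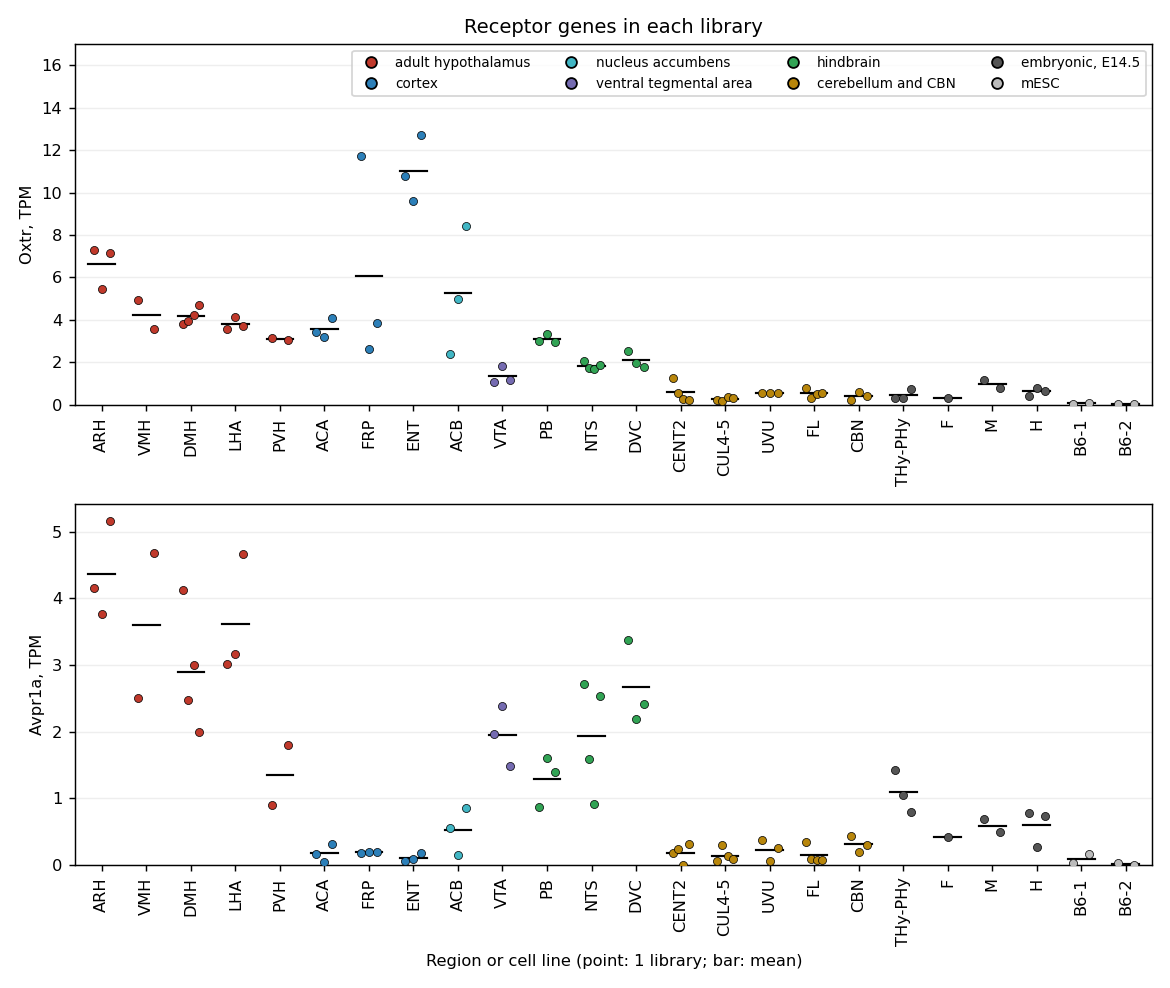
Oxtr and Avpr1a in each of the 70 libraries, with regions on the horizontal axis and TPM on the vertical axis; each point is a library. Oxtr peaks in the ENT, with 1 FRP library at 11.7 TPM, while Avpr1a peaks in the ARH, LHA and VMH and lies near 0 in the cortex and cerebellum.

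Each adult region was set against the other 17 in the same fit, where 10.9% of all gene and region pairs were called, from 4.96% in the LHA to 18.4% in CUL4-5. Within the hypothalamus the share of genes called was 12.5% in the ARH, 8.71% in the VMH, 7.24% in the DMH and 5.01% in the PVH. In the cortex and the reward regions it was 15.7% in the ACA, 12.7% in the FRP, 13.3% in the ENT, 12.8% in the ACB and 10.5% in the VTA. In the brainstem and cerebellum it was 5.85% in the PB, 7.95% in the NTS, 6.4% in the DVC, 15.3% in CENT2, 15.9% in the UVU, 11.6% in the FL and 10.7% in the CBN. Oxtr was called higher in 5 regions, lower in the 5 cerebellar regions and not called in 8. The higher regions were the ENT (log2 fold change 2.65, SE 0.21, edgeR adjusted p = 7.54e-16), the FRP and ARH (both 1.65), the ACB (1.41) and the VMH (1.01, SE 0.30, edgeR adjusted p = 0.00748). The cerebellar changes ran from -3.30 in CUL4-5 to -2.07 in the UVU. The DMH and LHA, each at 0.93, passed on p but not on size. Of the 5 higher calls, 3 rested on a single library: the change was 0.72 in the FRP without replicate 1, 0.94 in the ACB without replicate 3 and 0.77 in the VMH without replicate 1.

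Avpr1a was called in more regions, higher in 7, lower in 8 and not called in 3. The higher regions were the ARH (2.66, SE 0.29, edgeR adjusted p = 4.88e-11), LHA (2.52), VMH (2.39), VTA (2.18), DMH (2.07), DVC (2.05) and NTS (1.64). The lower regions were CUL4-5 (-2.64), ENT (-2.58, SE 0.58, edgeR adjusted p = 0.000219), FL (-2.53), CENT2 (-2.17), ACA (-2.05), FRP (-1.90), UVU (-1.86) and CBN (-1.18). The PVH (0.94), PB (0.92) and ACB (-0.45) were not called. The CBN was not called without replicate 2 (-0.94) or replicate 3, nor was the UVU without replicate 2 (-1.40, edgeR adjusted p = 0.054). The ENT and FRP were therefore called higher for Oxtr and lower for Avpr1a. VTA replicate 1 stood apart in its mitochondrial share of TPM, 39.6% against a median of 7.49% over the libraries, and with each VTA library left out in turn Avpr1a there lay between 1.75 and 2.44 and was called. With limma on log2(TPM + 0.5) it was 0.81, below the size limit.

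**Figure D4:**
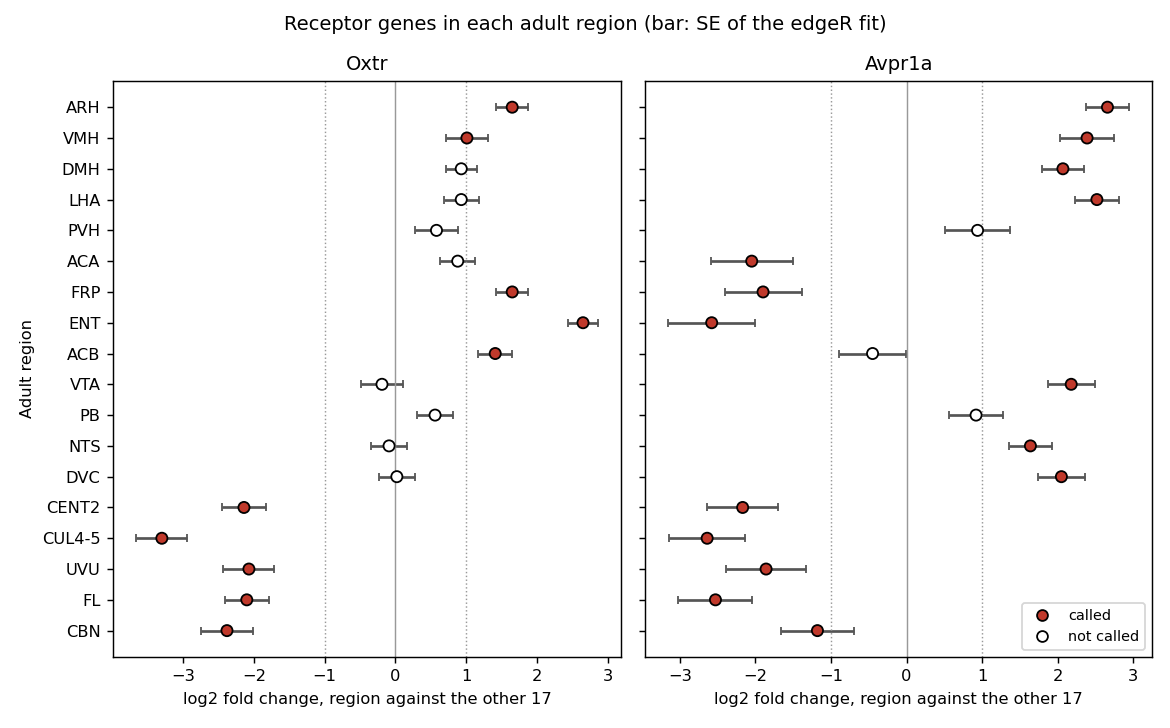
Log2 fold change of Oxtr and Avpr1a in each adult region against the other 17, with regions on the vertical axis, bars for the SE of the edgeR fit and filled points for called values. The ENT and FRP lie above 0 for Oxtr and below 0 for Avpr1a, the 5 cerebellar regions lie below 0 for both and the ARH and VMH above 0 for both.

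The other vasopressin receptors were near the limit of detection. Avpr1b, the receptor of pituitary corticotrophs, had its highest group mean in B6-1, at 0.604 TPM, and Avpr2, the kidney receptor of water retention, in CUL4-5, at 0.786 TPM. Neither was called in any comparison of the hypothalamus.

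Oxtr (ENSMUSG00000049112.9, chr6:112473683-112489943, reverse strand) has 2 annotated transcripts, and Avpr1a (ENSMUSG00000020123.6, chr10:122448499-122453452, forward strand) has 1. The share of Oxtr TPM assigned to transcript Oxtr-202 was between 45.6% (VMH) and 68.3% ± 8.38 (ENT, SD, n = 3) in the adult regions with at least 1 TPM. It was 95.7% ± 7.49 (SD, n = 3) in THy-PHy, where Oxtr had 11.3 to 28.8 counts, 94.9% ± 8.89 (SD, n = 3) in H, 72.3% ± 1.66 (SD, n = 2) in M and 25.2% in the single F library. With single 33-base reads, the split between transcripts is an estimate.

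Likeness was measured as Pearson's r of log2(mean TPM + 1) over the 22 brain regions, among 18721 genes with at least 1 TPM in some region. For Oxt the gene most alike was Avp (0.984), followed by Sytl4 (0.904), which encodes a protein of secretory granule transport, Kir3dl2 (0.888), Cnga3 (0.881) and Map3k15 (0.88). For Avp the list was Oxt, Sytl4 (0.899), Kir3dl2 (0.896), Cnga3 (0.872) and Cdhr2 (0.872). Both lists thus began with the partner peptide and shared 3 further genes. Sytl4 was highest in the VMH at 58.4 TPM, while Kir3dl2 reached at most 2.03 TPM. For Oxtr the genes most alike were Tnfaip8l3 (0.944), Krt77 (0.934), 4930539E08Rik (0.926), Pde1a (0.923) and Tmem191c (0.921), and for Avpr1a Dgkk (0.92), B630019K06Rik (0.902), Arhgap36 (0.899), Rcn2 (0.895) and BC035947 (0.894). Between peptides and receptors r was 0.429 for Oxt with Oxtr and 0.666 for Avp with Avpr1a, and between the receptors 0.362. The 22 means come from the same libraries for every gene, and these values are a description.

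Both peptides were low in the embryonic hypothalamus, where Avp was detected in every library. The THy-PHy libraries had 1.63, 2.18 and 1.04 TPM of Avp, from 6, 9 and 4.37 estimated counts. The forebrain, midbrain, hindbrain and mESC libraries all had 0. Oxt was 0, 0 and 1.24 TPM in THy-PHy and 0 to 0.848 TPM in the other embryonic regions, the latter from at most 3 counts. Avp thus separated THy-PHy from the other embryonic regions in every library, and Oxt did not.

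THy-PHy was tested against M and H, where 3.18% of genes were called, 1.44% higher and 1.74% lower, and none of the 4 was. For Avp, 19 counts in THy-PHy against 0 in M and H amounted to at least 9.81-fold higher against the 3 counts that a count of 0 allows over that group, but edgeR did not call it (adjusted p = 0.332). limma on log2(TPM + 0.1) gave 4.04 with adjusted p = 0.00968. Avpr1a was 1.43, 1.05 and 0.796 TPM in THy-PHy against a mean of 0.59 TPM in M and H, with no overlap of libraries (log2 fold change 0.86, SE 0.48, edgeR adjusted p = 0.332). Oxtr was 0.474 against 0.804 TPM (log2 fold change -0.75, SE 0.41, edgeR adjusted p = 0.319). The counts behind these values were at most 33 per THy-PHy library.

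Against the adult hypothalamus all 4 genes were called lower in THy-PHy, where 38.2% of genes were called and 20% were called lower. Mean Oxt was 0.413 against 400 TPM (edgeR adjusted p = 1.48e-10) and mean Avp 1.61 against 360 TPM, 223 times (log2 fold change -6.35, SE 1.0, edgeR adjusted p = 6.72e-07). Individual DMH libraries, with 1.11 TPM of Oxt and 0 TPM of Avp, reached down to the embryonic levels. Oxtr was 9.27 times lower with no overlap of libraries (log2 fold change -3.24, SE 0.39, edgeR adjusted p = 2.06e-10). Avpr1a differed least, 1.09 against 3.16 TPM (log2 fold change -1.41, SE 0.44, edgeR adjusted p = 0.00396), and overlapped the PVH libraries. In mESC the receptors had at most 0.156 TPM in any library.

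The other 25 genes of the system were counted in the same 4 comparisons. They are 2 receptors, 5 transcription factors, 5 enzymes of processing and degradation, 7 genes of release, RNA binding and co-transmission, and 6 of receptor signalling. All passed the filter on low counts.

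In the PVH comparison 2 of the 25 were higher and 1 lower, where 1.42% and 0.616% of all genes were, with a median log2 fold change of 0.11 against -0.02 over all genes. Cck, the peptide cholecystokinin that oxytocin neurons can also make, was 435 TPM ± 16.2 (SD, n = 2) in the PVH and 18.6 to 159 TPM on average in the other 4 regions (log2 fold change 3.08, SE 0.33, edgeR adjusted p = 9.51e-10). Plcb4, a phospholipase C, was 179 TPM ± 12.8 (SD, n = 2; log2 fold change 1.01, SE 0.14, edgeR adjusted p = 7.26e-07). Pdyn, the precursor of dynorphin and a partner of vasopressin in neurosecretory cells, was lower in the PVH at 14.8 TPM ± 9.84 (SD, n = 2) than in the ARH at 105 TPM ± 1.33 (SD, n = 3; log2 fold change against all 4 regions -1.83, SE 0.45, edgeR adjusted p = 0.00532). Sim1 and Otp were not called, at 0.90 (SE 0.42) and 0.11 (SE 0.54). The PVH libraries thus had high Cck beside high Oxt, but not high Pdyn beside high Avp. Cck was nearly equal in the 2 PVH libraries, whereas Oxt was 454 and 2075 TPM. Which cells held the Cck was not tested.

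In the hypothalamus as a whole, 5 of the 25 were higher and 1 lower, where 6.11% and 2.74% of all genes were, with a median of 0.34 against 0.0 over all genes. Sim1 (edgeR adjusted p = 4.36e-26) and Otp (log2 fold change 5.25, SE 0.28), Gal, the peptide galanin (5.19, SE 0.23), Pdyn (3.28, SE 0.17) and Pam, the enzyme that amidates both hormones (1.31, SE 0.06), were higher. Itpr1, the receptor of inositol trisphosphate, was lower (-1.72, SE 0.09). The other 5 signalling genes were not called.

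In the embryo 4 of the 5 listed transcription factors lay above the adult hypothalamic average and most secretory genes below it. Against M and H, 5 of the 25 were higher in THy-PHy and none lower, where 1.44% and 1.74% of all genes were: Sim1 (4.42, SE 0.47), Gal (2.74, SE 0.66), Otp (2.46, SE 0.51), Calb1 (1.75, SE 0.30) and Pdyn (1.51, SE 0.46). Otp was 129, 170 and 148 TPM and Sim1 11.2, 19.9 and 12.4 TPM in the THy-PHy libraries, above every adult hypothalamic library. Against the adult hypothalamus, 4 were higher and 14 lower, with a median of -1.54 against 0.0 over all genes. Of all genes 18.2% were higher and 20% lower, so the share that was higher lay near the background. The 4 that were higher were all transcription factors, 4 of the 5 listed: Otp (2.80), Sim1 (2.68), Pou3f2 (1.65) and Creb3l1 (1.35). All 5 enzymes were lower, among them the prohormone convertases Pcsk1 (-3.53, SE 0.21) and Pcsk2 (-2.94, SE 0.14), which cut the precursors, and Lnpep (-1.63, SE 0.20), which degrades both hormones. Of the 7 genes of release and co-transmission 6 were lower, from Cck (-5.23, SE 0.60) to Cd38 (-2.55, SE 0.17), which is needed for oxytocin release. Of the 6 signalling genes 3 were lower: Itpr1 (-3.08), Plcb1 (-1.54) and Plcb4 (-1.43). THy-PHy thus had 4 transcription factors of peptide neurons above adult levels, and both peptides, the 5 enzymes and both receptors below them. The 6 anterior pituitary genes summed to 2.45, 21.6 and 18.2 TPM in THy-PHy, led by Cga at 1.87, 17.3 and 12.0 TPM, and their part in these values was not tested.

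**Figure D5:**
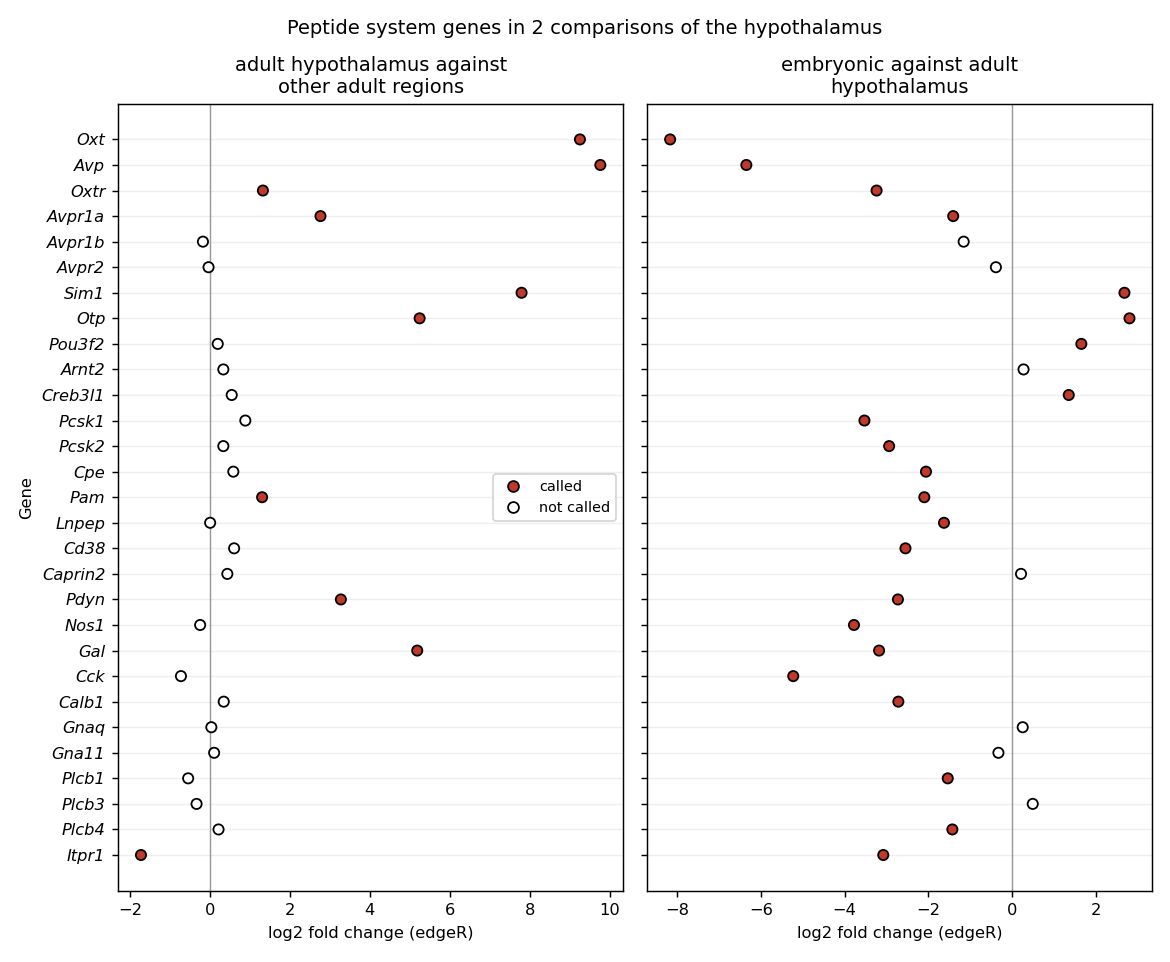
Log2 fold change of the 4 genes and the 25 other genes of the system (vertical axis) in 2 comparisons, the adult hypothalamus against the other adult regions and THy-PHy against the adult hypothalamus; the horizontal axes are log2 fold changes and filled points are called. Against the adult hypothalamus the 4 called transcription factors lie above 0 and all 5 enzymes of processing and degradation below it.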

How the data were processed

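RNA sequencing libraries of 70 mouse samples were analysed. As the study's methods and the submitters' processing notes state, the authors made strand-specific mRNA libraries, sequenced them as single reads of 33 bases, processed them with CASAVA (version 1.8.2) and quantified them with Kallisto (0.43.1) on Ensembl GRCm38 transcripts, with a fragment length of 120 and an SD of 20. The deposited estimated counts per transcript were not normalised; the deposited TPM values are the authors' and were summed over a gene's transcripts. Of 109282 transcripts, 107987 (98.8%) were matched to a gene; the rest held 0.418 to 0.767% of counts. For each gene, the counts of its transcripts were added up and rounded to whole numbers. Levels and figures use TPM.

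Tests used edgeR (version 4.0.16; TMM, filterByExpr, quasi-likelihood) in R 4.3.3 on all 70 libraries with a mean per group, with Benjamini-Hochberg adjustment over 19980 genes and calls at adjusted p below 0.05 and an absolute log2 fold change above 1. Comparisons average regions on the log scale. On simulated counts for the PVH comparison (18496 genes tested), 71 of 96 genes changed 4-fold and 86 of 97 changed 8-fold were called, and 5 of 18303 unchanged genes. Apart from the built-in changes, each simulated gene had the same mean share and spread in every group. These rates therefore do not cover genes near 0 in most groups, such as the peptides. DESeq2 (1.42.0), limma (3.58.1) on log2(TPM + 0.5) or log2(TPM + 0.1), no filter on low counts, a replicate block and the omission of each library were alternatives; refits without a library kept the dispersion trend of all libraries. After the data had been seen, 2 pooled groups, edgeR's bias-adjusted deviances, the PVH against single regions and a difference between stages were added. Correlations used Python 3.11.15 with scipy 1.17.1.

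The 4 genes and all lists were chosen with earlier results of these data known. The genes named are the 4 members, the pathway genes called in a comparison, and the 5 genes most alike to each member; markers and other peptides are named beside the results they move with. No 2 replicates had identical counts (0 pairs). Promoter sequences and motif shares are from RefSeq on GRCm38.p6, and all 4 genes matched. Same-numbered libraries mostly did not deviate together: their median correlation was -0.02 over 23 pairs in the adult hypothalamus. Over all adult regions the median was 0.01 over 436 pairs, of which 49 were above 0.1 and the highest was 0.39. The numbers were not taken to pair samples. The value of 1 marker gene is not reported here.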

Additional observations from a re-analysis of the deposited data

Results flagged for a closer look

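Within groups of 4 libraries, a library was singled out by its gap to the nearest other. The gap had to exceed Dixon's critical share of the group's range for 95% confidence. For normally distributed values chance does this in about 1 of 20 groups. Of 19 gene and group pairs, 6 met the rule. In the DMH, Avp was 18.8 TPM in replicate 1 and 0 to 1.81 TPM in the others, a gap of 0.903 of the range; the same library had the most Oxt, Otp and Sim1 of the DMH. In the flocculus, Avpr1a was 0.339 TPM in replicate 1 and 0.0736 to 0.0827 TPM in the others, a gap of 0.966 of the range. The other 4 were libraries with a low value beside libraries at 0: Oxt in CUL4-5 replicate 3 (0.31 TPM), and Avp in CENT2 replicate 1 (0.552 TPM), flocculus replicate 1 (0.303 TPM) and NTS replicate 1 (0.794 TPM). With every other library at 0 the gap is always the whole range. The rate of 1 in 20 therefore does not apply to these 4, which had 1 to 3.23 counts.

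The fitted regional difference of Oxtr was not the same at both stages. In the adult, Oxtr was 0.81 higher (log2) in the hypothalamus than in PB, NTS and DVC, whereas in the embryo it was -0.55 in THy-PHy relative to the hindbrain. The difference between these differences was 1.36 (edgeR adjusted p = 0.0343 over all genes). For Avpr1a it was -0.17 (edgeR adjusted p = 0.923). This contrast was chosen after the data had been seen, and the stages were also separate batches. The share of all genes that passed in this contrast is not given here. The Oxtr value therefore has no background beside it and does not show whether Oxtr stands out from other genes.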

How the results depend on the processing

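The calls of the adult hypothalamus against the other regions and of THy-PHy against the adult hypothalamus kept their direction and their side of the threshold under every alternative tried, except that Oxtr in the adult comparison was 0.62 and no longer passed when libraries were pooled into 2 groups. The PVH comparison was the least stable. Oxt was 3.88 with DESeq2, 3.04 with 2 groups and 1.98 against the VMH alone, and passed in none of them. Avp was 2.83 with DESeq2, 3.51 with limma on log2(TPM + 0.1), 1.28 with 2 groups and 1.65 against the VMH alone, and passed in none of them; against the ARH alone it was -0.40, the opposite direction. Avpr1a in the PVH passed with DESeq2 (-1.38), limma on log2(TPM + 0.5) (-1.16), bias-adjusted deviances (-1.39) and against the ARH alone (-1.62). In THy-PHy against M and H, Avp passed with limma on log2(TPM + 0.1), at 4.04. With limma on log2(TPM + 0.5), 3 regions had higher Oxtr in place of 5, the ACB (0.96) and VMH (0.80) falling below the size limit, as did Avpr1a in the CBN (-0.88), NTS (0.74) and VTA (0.81). With no filter on low counts Oxtr in the VMH (0.99) and Avpr1a in the CBN (-1.17, edgeR adjusted p = 0.0557) were not called, and with limma on log2(TPM + 0.1) Oxtr in the DMH (1.03) was. The causes were not tested. With 2 pooled groups Avp could not be fitted in 2 comparisons, nor Oxt in THy-PHy against M and H, because they failed the filter on low counts.

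Leaving out each library in turn gave 2.44 to 4.57 for Oxt, 1.32 to 4.01 for Avp, -1.93 to -0.99 for Avpr1a and -0.58 to -0.46 for Oxtr in the PVH comparison, and a correlation of Oxt and Avp of 0.691 to 0.934. In THy-PHy against M and H, the change of Oxt ranged from -3.18 to 2.36, so its sign was set by single libraries. With the replicate number as a block, the change in the PVH was 3.93 for Oxt and 2.54 for Avp, and 0 of 56 results changed their call. Since the numbers were not taken to pair samples, this block does not test for shared mice or batches. Counts limit the embryonic peptide values (at most 9 per library) and the cortical and cerebellar Avpr1a values (at most 10 per library), and the PVH and VMH rest on 2 libraries each.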
